A study of Drosophila melanogaster with 4 samples.

Results

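The broad Fru peaks are the 512 regions of 1000 bp or more among the 5339 peaks that the authors' list places on the major chromosome arms X, 2L, 2R, 3L, 3R and 4 of Drosophila melanogaster. They were chosen by their width, a measured value (last minus first base plus 1), and the 4827 narrower peaks of the same arms served for comparison. The whole list holds 5538 peaks in coordinates of FlyBase Release 5. Widths, and the scores that come from the same enrichment, are therefore given as descriptions, and no test was run on them. The list has no value per library, so spreads below are over peaks, and intervals cover counting error only.

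Fruitless (Fru) is a transcription factor with a BTB domain, through which such proteins pair, and zinc fingers that contact DNA. Its gene is best known for the male courtship circuit, and some of its products act during development in both sexes. In chromatin immunoprecipitation with sequencing (ChIP-seq), a peak is a stretch where DNA recovered with an antibody is enriched, and its width is the length over which the peak caller found that enrichment.

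The series comprised 4 libraries from whole embryos, 2 made from anti-Fru ChIP DNA and 2 from input DNA that was not immunoprecipitated. All 4 shared the strain Y cn bw sp, unknown sex and the stage label Embryo 0-8, although the collection steps describe an egg laying of 8 to 16 h. The genotype label, also the same for all, lists y[1] with oc[R3.2], then Gr22b[1] and Gr22d[1], next cn[1] beside CG33964[R4.2], with bw[1] and sp[1] after them, then LysC[1] and lab[R4.2], and last MstProx[1], GstD5[1] and also Rh6[1]. The antibody was a rabbit polyclonal made for the purpose, no library without Fru protein was among the samples, and whole embryos mix many cell types. The depth behind each peak is unknown.

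Broad peaks made up 9.59% of all peaks on the arms (exact Clopper-Pearson 95% interval 8.81% to 10.4%) and held 28.4% of the bases under peaks, 792.9 of 2796 kb. Most were only a little over the minimum. Their median width was 1313.5 bp (quartiles 1123.5 and 1660.5 bp), whereas the narrower peaks had a median of 347 bp. There were 220 from 1000 to 1249 bp, 117 from 1250 to 1499 bp and 98 from 1500 to 1999 bp. A width of 2000 to 2999 bp was found in 53, and 24 were of 3000 bp or more, up to 9269 bp. Scores on both sides of the minimum overlapped. The 14 peaks just inside it (1000 to 1009 bp) had scores of 13.72 to 33.25 with a median of 21.2, and the 13 just outside it (990 to 999 bp) had scores of 16.32 to 250.3 with a median of 23.6.

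The authors' score, which ranks peaks within this list and has no stated scale, varied widely among the broad peaks. Its median was 24.5 (quartiles 18.3 and 36.1, n = 512), and it ran from 11.22 to 509.52. In the narrower peaks the median was 11.8 (quartiles 9.63 and 14.9, n = 4827). A score over 100 was reached by 54 broad peaks, 10.5% of them, and by 4 narrower ones, where 1.09% of all peaks on the arms lay above it. Since score and width come from the same signal, nothing is read from that contrast. Of the 512 highest-scoring peaks on the arms 271 were broad, 52.9% of either list, so the broadest and the strongest peaks overlapped only in part.

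The widest of the broad peaks fell on both sides of the score range. Among the 77 peaks of 2000 bp or more, 36 scored over 100 (median 262.7, median width 2948.5 bp), 12 scored from 50 to 100, and 29 scored 50 or less (median 28.2, median width 2241 bp). A neighbour within 1 kb of an edge was found for 27 of the 36, 7 of the 12 and 19 of the 29. The median gap to the nearest peak was 347 bp over a score of 100, 687.5 bp from 50 to 100 and 625 bp at 50 or less. The mean number of other peaks within 10 kb was 4.97 ± 3.37 (SD, n = 36), 3.25 ± 2.56 (SD, n = 12) and 4.48 ± 3.00 (SD, n = 29) in the same order. These values did not follow the order of the scores, and the differences were not tested.

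**Figure D1:**
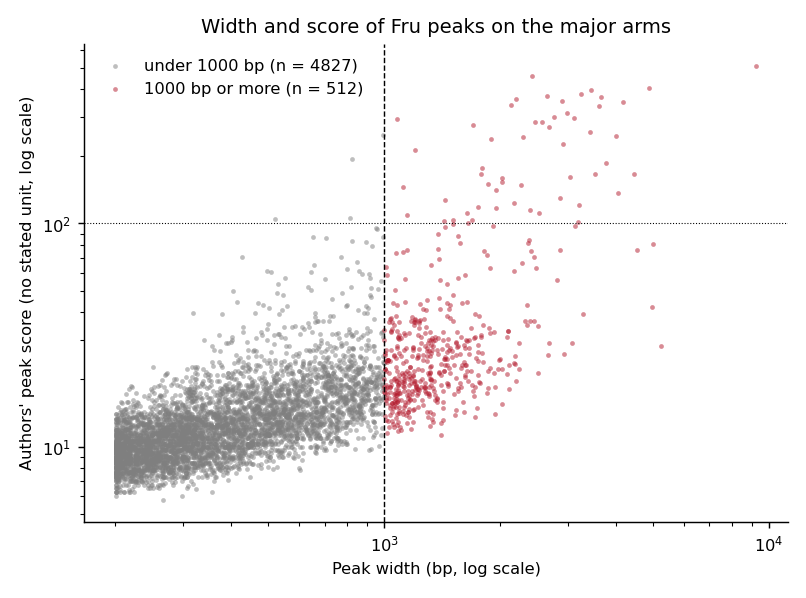
Width in bp against the authors' score, both on log axes, for the 512 peaks of 1000 bp or more (red) and the 4827 narrower peaks (grey) on the major arms. The dashed line marks 1000 bp and the dotted line a score of 100, above which 54 broad and 4 narrower peaks lie, and the widest peaks span scores from under 50 to 509.52.

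The widest peaks of each arm show this range region by region, in Release 5 coordinates. On 3L the widest of all, 9269 bp from 6175490 to 6184758, was also the highest in score at 509.52. It stood in a chain of 5 peaks (neighbours less than 1000 bp apart, edge to edge), and the nearest was another broad peak, of 1085 bp and score 18.79, 376 bp away. The next on 3L, 3111 bp from 19888335 to 19891445, scored 296.8. The 2932 bp peak from 5760202 to 5763133 scored 25.97 and lay in a chain of 6. Peaks of similar width on this arm thus had very different scores.

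On 3R the widest, 5241 bp from 7197450 to 7202690, scored only 28.16 and had 2 other peaks within 10 kb. The next, 4178 bp from 2191628 to 2195805, scored 351.1 and stood apart, with no neighbour closer than 8643 bp and no broad peak closer than 622109 bp. The third, 4052 bp from 10642581 to 10646632, scored 137.4 and was in a chain of 6. High scores were thus found both for a peak that stood alone and for one in a chain.

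On X the widest, 4980 bp from 19525276 to 19530255, scored 81.15 in a chain of 5, with 9 other peaks within 10 kb. The second, 4869 bp from 9576519 to 9581387, scored 406.4 with a broad neighbour of 1083 bp 455 bp away. The third, 4456 bp from 11606969 to 11611424, scored 166.1. About 29 kb from it, across a gap of 29357 bp, lay the broad peak of lowest score on the arms, 1403 bp from 11576209 to 11577611 with a score of 11.22. Strong and weak broad peaks thus lay within the same part of X.

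On 2L the widest, 4532 bp from 246206 to 250737, scored 76.45. The 4007 bp peak from 19052158 to 19056164 scored 247.5 and was 48 bp from a broad peak of 1216 bp and score 16.96. The 3428 bp peak from 8674694 to 8678121 scored 255.8 and had no broad peak within 148520 bp. All 3 were in chains of 3 peaks.

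On 2R the widest, 4950 bp from 9108953 to 9113902, scored 42.37, and its nearest broad peak was 2074 bp away. The second, 3761 bp from 14046040 to 14049800, scored 186.5 with 3 broad peaks within 10 kb. The third, 3655 bp from 2517216 to 2520870, scored 370.8 in a chain of 8 and had no broad peak within 14240 bp. The widest peak was thus not the strongest broad peak on X, 2L, 2R and 3R, and 3L was the exception.

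**Figure D2:**
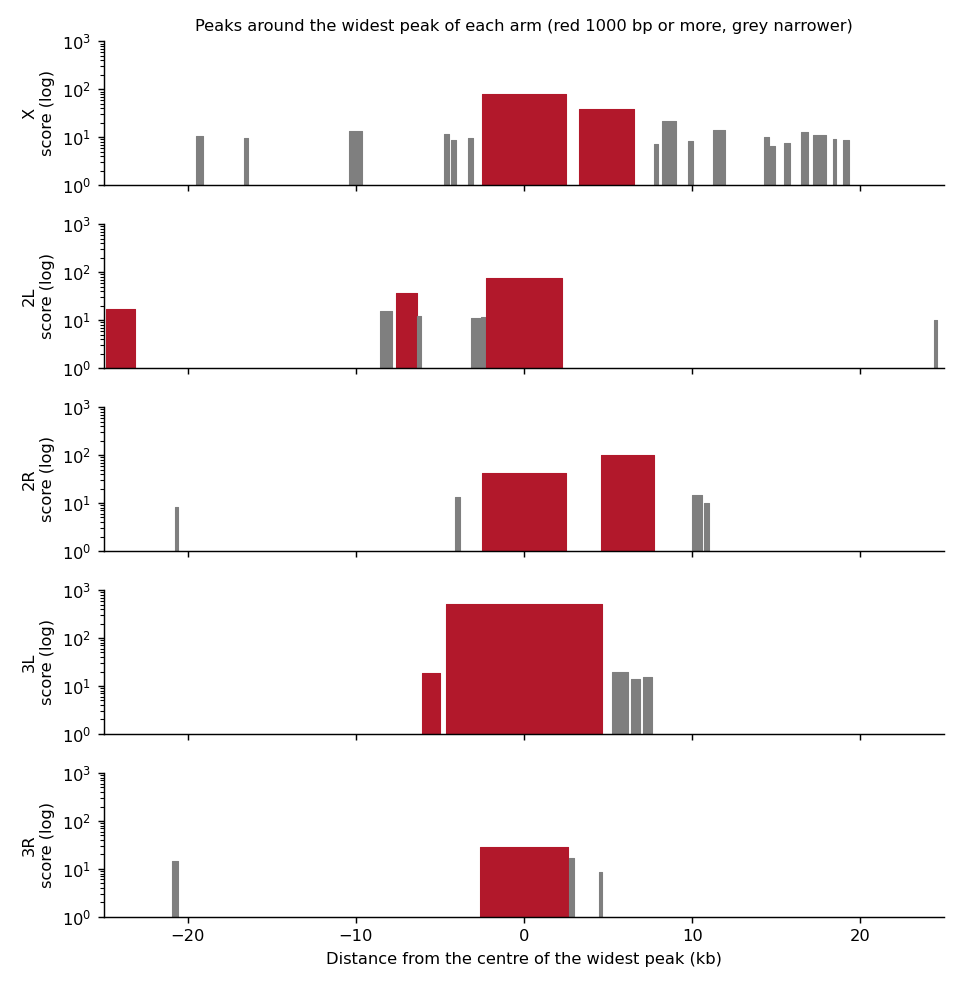
All peaks within 25 kb of the centre of the widest broad peak on each of the 5 large arms, drawn to scale by distance in kb, with height as the authors' score on a log axis (red 1000 bp or more, grey narrower). The widest peak had 18 other peaks around it on X and 3 on 3R, and its own score ranged from 28.16 on 3R to 509.52 on 3L.

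The 5 highest scores of broad peaks were spread over the 5 large arms, and those not yet given were on 3R, 2R and 2L. The broad peak on 3R from 26737332 to 26739755 scored 456.57 over 2424 bp. That on 2R from 9076230 to 9079675 scored 394.6 over 3446 bp, and that on 2L from 6086833 to 6090082 scored 378.68 over 3250 bp. At the other end, broad peaks of 1015 bp on 2R (9371556 to 9372570) and 1087 bp on 3R (1415786 to 1416872) scored 11.54 and 11.77, below the median of the narrower peaks. The strongest narrower peaks were 996 bp on 2L with 250.3, 827 bp on 2R with 195.4 and 814 bp on 3L with 105.9. The first of these missed the minimum width by only a few bases.

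Broad peaks had close neighbours somewhat more often than narrower ones. Another peak lay less than 1000 bp from an edge for 320 of the 512 broad peaks, 62.5% (exact 95% interval 58.1% to 66.7%), and for 2593 of the 4827 narrower peaks, 53.7% (52.3% to 55.1%), where the share over all peaks was 54.6%. The median edge gap to the nearest peak was 681.5 bp for broad peaks (order-statistic 95% interval 558 to 778 bp) and 840 bp for narrower ones (793 to 897 bp). Measured between centres, the order was the other way, 1770 bp against 1376.5 bp, since the centre of a broad peak is farther from its own edge. Peaks on one arm share their neighbours and are not independent, so these intervals are too narrow, and no test was made.

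By width class, the share with a close neighbour was lowest in the narrowest peaks and highest in the widest. A neighbour within 1 kb was found for 51.1% of peaks under 250 bp, 53.9% from 250 to 499 bp, 55.0% from 500 to 749 bp and 56.8% from 750 to 999 bp. Among the members it was 62.3% from 1000 to 1249 bp, 60.7% from 1250 to 1499 bp and 60.2% from 1500 to 1999 bp. It was 66.0% from 2000 to 2999 bp (35 of 53) and 75% in the widest class (18 of 24, exact 95% interval 53.3% to 90.2%). The intervals of neighbouring classes overlapped throughout, so whether the share rises in a step or gradually was not resolved. That of the class from 1000 to 1249 bp (55.5% to 68.7%) did not overlap that of peaks under 250 bp (48.2% to 54.1%). Those of all wider classes, which hold fewer peaks, did overlap it. They were 51.2% to 69.6% from 1250 to 1499 bp, 49.8% to 70.0% from 1500 to 1999 bp and 51.7% to 78.5% from 2000 to 2999 bp.

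Counted over distance, the excess of neighbours was seen out to 20 kb. In the first kb from either edge there were 0.437 other peaks per kb around broad peaks and 0.368 around narrower ones. From 2 to 5 kb the means were 0.192 and 0.153 per kb, and from 10 to 20 kb they were 0.104 and 0.0942. From 20 to 50 kb the order turned, with 0.0677 around broad and 0.0710 around narrower peaks. The mean number of other peaks within 10 kb was 3.89 ± 2.99 (SD, n = 512) and 3.28 ± 2.66 (SD, n = 4827); the difference was not tested. No other peak within 10 kb was found for 47 broad peaks, 9.18% (6.82% to 12.0%), set against 11.9% of all peaks.

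**Figure D3:**
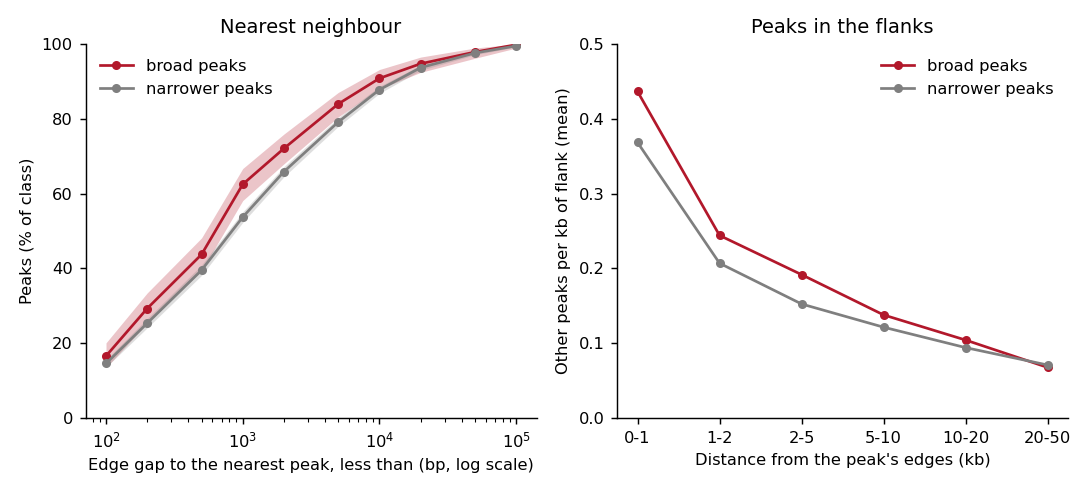
Left, the percentage of broad (red, n = 512) and narrower peaks (grey, n = 4827) whose nearest peak is closer than the edge gap on the log axis, with exact 95% bands for counting error. Right, the mean number of other peaks per kb of flank by distance from the peak's edges, 0.437 against 0.368 in the first kb and nearly equal from 20 to 50 kb.

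The most isolated broad peaks were on 3L and 3R. A 1556 bp peak on 3L from 14402451 to 14404006, of score 88.14, had no other peak within 126889 bp. On 3R one of 1557 bp from 27840210 to 27841766 (score 56.76) had its nearest neighbour, itself broad, 76186 bp away. Another on 3L, 1143 bp from 7720955 to 7722097 (score 76.29), was 73593 bp from the next peak. All 3 scored well above the median of the broad peaks, 24.5, without being among the strongest.

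The neighbours themselves were mostly ordinary narrower peaks. The peak nearest to a broad one had a median width of 434 bp and a median score of 13.0, compared with 374 bp and 12.2 for the peak nearest to a narrower one. It was broad in 66 of 512 cases, 12.9% (10.1% to 16.1%), where the nearest peak was broad for 9.65% of all peaks and for 9.30% of the narrower ones. A second broad peak within 1 kb was found for 62 members, 12.1% (9.41% to 15.2%), compared with 8.00% over all peaks.

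Narrower peaks close to a broad one were hardly different in score from those far away. Within 1 kb of a broad peak, 365 narrower peaks had a median score of 12.2 (order-statistic 95% interval 11.8 to 12.9) and a median width of 404 bp (365 to 438 bp). Beyond 50 kb, 2197 had a median score of 11.7 (11.6 to 11.9) and a median width of 335 bp (326 to 343 bp). The intervals of the score overlapped and those of the width did not. Whether a narrower peak beside a broad one belongs to the same enriched region was not tested.

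In chains, broad peaks were members of larger groups a little more often than narrower ones. Of the 512, 192 (37.5%) stood alone, and 46.3% of narrower peaks did. Chains of 4 or more peaks held 93 broad peaks, 18.2% (14.9% to 21.8%), set against 13.4% of all peaks and 12.8% of the narrower ones. Both neighbours lay within 1 kb for 76 broad peaks, 14.8% (11.9% to 18.2%), with 11.7% over all peaks. Broad peaks were 7.91% of the peaks that stood alone, 10.1% of those in chains of 2, 10.8% in chains of 3 and 10.6% in chains of 4. In chains of 5 they were 16.1% (29 of 180), in chains of 6 16.7% (14 of 84) and in chains of 7 12.5% (7 of 56), and the few longer chains held 4 in all. Within chains of 3 or more they took inner positions in 76 of 163 cases, 46.6%, and narrower peaks did in 45.7%.

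Some chains held several broad peaks. Of the 277 chains of 2 or more peaks with a broad member, 35 held 2 broad peaks and 4 held 3, together 14.1%, and 82 of the 512 broad peaks (16.0%) were in these chains. Over all 3571 chains, lone peaks included, the share with 2 or more broad peaks was 1.09%. These shares are not comparable. The 3571 include 2426 lone peaks, which cannot hold 2 broad ones, and the 277 were chosen for holding a broad peak. Whether broad peaks share chains more often than their 9.59% of all peaks would give was not tested. The chain on 2R from 9074049 to 9083518 had 7 peaks, among them the 3446 bp peak of score 394.6 followed by broad peaks of 1076 bp (score 25.03) and 1020 bp (score 24.05). Also on 2R, from 14043614 to 14051010, the 3761 bp peak of score 186.5 lay between broad peaks of 1305 bp (17.22) and 1078 bp (19.73). In both, 1 peak of score over 100 stood beside broad peaks near or below the median of 24.5.

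The other two chains had no score over 100. On 3R from 7051900 to 7057784, broad peaks of 1408, 2241 and 1398 bp scored 23.51, 28.99 and 41.32. On 2L from 12003210 to 12007625, those of 1085, 1306 and 1104 bp scored 31.04, 26.76 and 16.19. Both regions were nearly covered by peaks, with short gaps between them.

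Arm by arm, broad peaks were most frequent on 3R. That arm had 163, 31.8% of all, which were 11.4% of its 1424 peaks (exact 95% interval 9.84% to 13.2%) and 5.85 per Mb of its span, taken from first to last peak (exact Poisson 95% interval 4.99 to 6.83). On 2L there were 95 (10.1% of 945 peaks, 4.19 per Mb) and on 3L 92 (8.85% of 1040 peaks, 3.79 per Mb). X had 63, 8.92% of its 706 peaks (6.93% to 11.3%) and 3.03 per Mb (2.32 to 3.87). Chromosome 4 had 0 among 12 peaks, for which the exact 95% interval reaches up to 26.5%, and its widest peak was 706 bp.

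Arm 2R ranked differently in number and in share. It had 99 broad peaks, 5.06 per Mb (4.11 to 6.16), and the highest density of narrower peaks, 56.9 per Mb against 45.3 on 3R. Its share of broad peaks was the lowest of the large arms, 8.17% of 1212 (6.69% to 9.86%). The interval of this share overlapped that of 3R only at its edge, and overlapped those of X, 2L and 3L widely. All share intervals of the large arms overlapped, so they did not resolve the order by share (3R, 2L, X, 3L, 2R). The Poisson intervals per Mb did not overlap for X with 3R, X with 2R and 3L with 3R, while those of X and 2L did. Across 1 Mb windows the variance of broad counts was 2.05 times their mean. Poisson intervals assume equality, so these are too narrow.

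The sizes of broad peaks hardly differed between arms. Median widths were 1322 bp on X, 1332 bp on 2L, 1311 bp on 2R, 1277.5 bp on 3L and 1304 bp on 3R. Median scores were 28.6 on X, 27.6 on 2L, 22.7 on 2R, 23.2 on 3L and 23.5 on 3R, and each large arm had 10 or 11 broad peaks over 100. On X the narrower peaks had the lowest median score of the large arms, 10.9 against 11.8 to 11.9, whereas its broad peaks had the highest. The median gap from a broad peak to the nearest peak ran from 516 bp on 2R (order-statistic 95% interval 318 to 794 bp) to 812 bp on 3R (541 to 998 bp). It was below that of narrower peaks on 2L (730 against 1052 bp), 2R (516 against 797 bp) and 3L (618.5 against 855 bp). The intervals of broad and narrower peaks overlapped on each of these arms. On X (657 against 647 bp) and 3R (812 against 807 bp) the medians were about equal. A neighbour within 1 kb was more frequent for broad peaks on every large arm, with 68.3% against 56.9% on X and 58.3% against 55.8% on 3R.

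**Figure D4:**
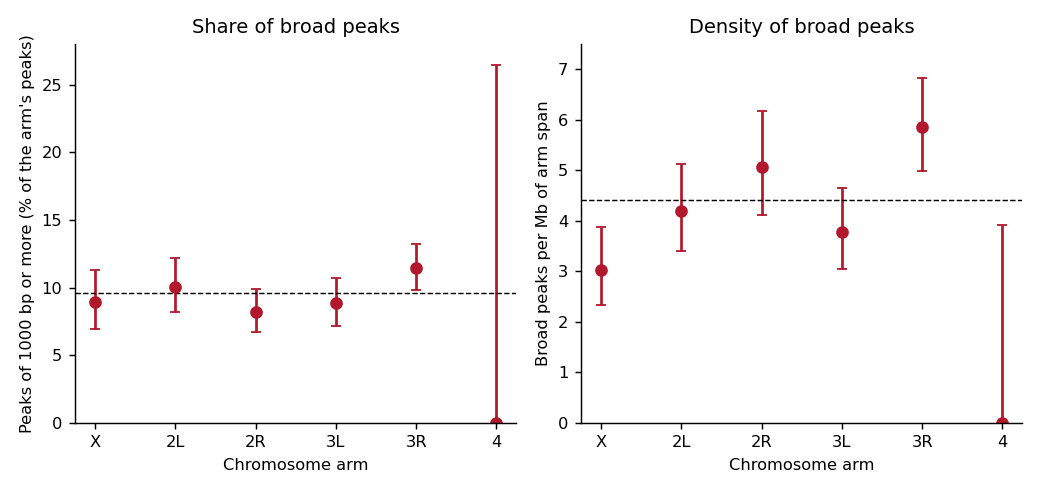
Left, peaks of 1000 bp or more as a percentage of the peaks of each arm with exact 95% intervals. Right, broad peaks per Mb of arm span with exact Poisson 95% intervals, dashed lines marking 9.59% and 4.41 per Mb over all arms. Shares of the 5 large arms lie between 8.17% and 11.4%, and densities between 3.03 per Mb on X and 5.85 per Mb on 3R.

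Along the arms, shares of broad peaks were compared in 5 equal parts of the span, counted in the direction of the numbering. The numbering of X, 2L and 3L starts at the telomere and that of 2R and 3R near the centromere. On 2L the share was 13.6% in part 1 (31 of 228), 5.83% in part 4 (7 of 120) and 6.04% in part 5 (11 of 182). On 3L part 1 had the lowest share, 5.58% (15 of 269), although it had the most peaks. On X part 2 had 4.55% (7 of 154) and part 5 had 11.2% (22 of 196). Shares on 2R ran from 5.58% to 9.70% and on 3R from 8.81% to 14.0%. Within each arm the exact 95% intervals of all parts overlapped. Such overlap does not decide whether the share changes along an arm, and no trend was tested.

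**Figure D5:**
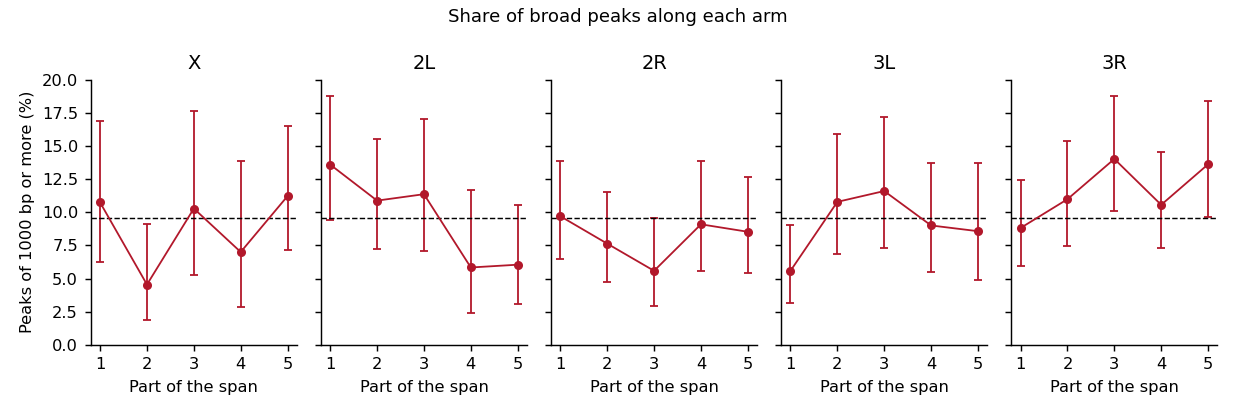
Percentage of peaks that are 1000 bp or wider in each of 5 equal parts of the span of the 5 large arms, with exact 95% intervals for counting error and the dashed line at 9.59%. The share on 2L is 13.6% in part 1 and 6.04% in part 5, with overlapping intervals.

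In whole windows of 1 Mb, those with more narrower peaks tended to hold more broad ones. The 112 windows of the large arms held 4.50 ± 3.04 broad peaks (SD, median 4, range 0 to 14) and 42.2 ± 16.6 narrower ones. Across the windows, which are stretches of the same list and not replicates, Spearman's rho between both counts was 0.52 and Pearson's r 0.54. Counting error in the few broad peaks per window limits both values, so how closely the counts follow each other was not resolved. Within arms rho ran from 0.23 on 3L (24 windows) to 0.56 on 3R (27 windows). The variance of broad counts was 2.05 times their mean and that of narrower counts 6.54 times, and 7 windows held no broad peak. Such a ratio depends on the mean count, so these values do not show which class is more evenly spread. The richest window lay on 3R from 25000377 to 26000376, with 14 broad among 74 peaks.

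On a finer scale, most windows with peaks held no broad one. Of the 884 windows of 100 kb that held a peak, 545 had no broad peak, 230 had 1 and 71 had 2. The mean was 0.579 broad peaks per window, and broad peaks were 9.59% of all peaks. Many windows without one thus follow from their small number. The highest number was 6 among 25 peaks, on 3R from 12000001 to 12100000, where the highest score was 34.06. Then came 7 windows with 5 each. On 2L these began at 200001 and 5900001, on 2R at 14000001 and 17500001, and on 3R at 7000001, 13500001 and 25800001. Median scores of their broad peaks lay between 18.3 and 37.2, and 1 of the 8 windows contained a score over 100. These medians lie on both sides of the median of all broad peaks, 24.5.

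The 100 kb windows with the most peaks were also counted for broad ones. Of the 10 windows of 100 kb with the most peaks, 9 held a broad peak, with a mean of 2.8, whereas the 884 windows with any peak had a mean of 0.579. The ranking counted all peaks, broad ones included, so a higher mean follows from it. These 10 windows held 23 to 36 peaks each. With 9.59% of all peaks on the arms broad, most such windows would hold a broad one at that share alone. The counts thus show nothing particular to broad peaks, and whether their share differed in these windows was not tested. The 100 kb window with the most peaks, 36 on 3R from 21800001, held 3 broad peaks, and the next, 34 on X from 19500001, held 4. The exception on 2L, from 21400001 to 21500000, had 25 peaks of which 0 were broad, and on 3R that from 12000001 had the same number with 6 broad.

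Between successive broad peaks the median stretch was 111.2 kb (quartiles 19.2 and 320.4 kb, n = 507 stretches) and contained a median of 6 narrower peaks. In 59 of them, 11.6%, no narrower peak lay between, where broad peaks were 9.59% of all peaks on the arms. The difference was not tested. The longest stretches were 1854 kb on X from 14133250 to 15987713 with 30 narrower peaks, 1699 kb on X from 1935166 to 3633832 with 46, and 1472 kb on 2R from 14526724 to 15998659 with 54. Densities of narrower peaks there were below those of their arms, with 16.2 and 27.1 per Mb in the stretches on X (30.9 per Mb over X) and 36.7 per Mb in that on 2R (56.9 per Mb over 2R). For the second on X the difference was small. The stretches were picked for holding no broad peak, and windows with fewer broad peaks tended to hold fewer narrower ones. The differences were not tested.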

How the data were processed

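The data are 1 peak list for 4 ChIP-seq and input libraries. Per the file headers, MACS called the peaks, in FlyBase Release 5 positions. As tools, BWA, CASAVA (versions 1.7.0.2 and 1.7.0.3) and MACS2 are listed, with the build BDGP5, per the submitters' processing notes. The authors deposited a first base, a last base and a score for each peak. Not given in the sources used here are the scale of the score, the libraries and threshold used, pooling and filters. Depth is unknown.

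Here, width, edge gap (bases between neighbouring peaks), chains (gaps under 1000 bp) and counts in flanks and windows were computed with scipy 1.17.1, pandas 2.3.3 and numpy 2.4.6 in Python 3.11.15 (figures in matplotlib 3.10.9), and checked on simulated data. Intervals of 95% are Clopper-Pearson for shares, Poisson for densities and order-statistic for medians. The members, comparisons and rules were chosen with earlier results of these data known. Regions named are the 3 widest broad peaks per arm, the 5 highest and 3 lowest in score, the 3 most isolated, the 3 strongest narrower peaks, the richest 100 kb windows and chains, and the 3 longest stretches. The dense 100 kb windows and the richest 1 Mb window were chosen after their values were seen. Gene positions were not used, as the gene table is of Release 6, so no peak was assigned to a gene and no sequence is shown.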

Additional observations from a re-analysis of the deposited data

Results flagged for a closer look

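Peaks of 1000 bp or more were also present outside the major arms, in sequence that the comparisons above do not use, and number 7 in all. Of these, 6 lie on the unplaced scaffold U, all between 5288434 and 5305800, with widths from 1000 to 2069 bp and scores from 13.91 to 326.8. They are among 27 peaks on U. The remaining 1 is on the mitochondrial genome from 16964 to 19615, with 2652 bp and a score of 315.5, among 22 peaks there. On Uextra 0 of 140 peaks were broad.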

How the results depend on the processing

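The share of broad peaks follows the minimum width by construction. With 800 bp, 1500 bp and 2000 bp it was 15.9%, 3.28% and 1.44% of peaks, and 39.0%, 13.9% and 8.00% of covered bases. With 800 bp the arms had 13.0% (X), 17.0% (2L), 14.5% (2R), 15.0% (3L) and 18.4% (3R). With 1500 bp they had 2.97%, 3.70%, 2.72%, 3.08% and 3.79% in the same order, and with 2000 bp 1.42%, 1.90%, 1.07%, 1.54% and 1.40%. Thus 2R was lowest and 3R highest at 1500 bp as at 1000 bp, X was lowest at 800 bp, and 2L was highest at 2000 bp. Keeping the 50% of peaks with the highest score raised the share to 18.6%, and merging gaps under 200 bp or 1000 bp raised it to 15.2% or 30.5%.

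The median gap of broad peaks was 455 bp with the 2000 bp minimum. With the top 50% by score it was 1497 bp for broad and 2783 bp for narrower peaks, and between centres it was 1770 and 1376.5 bp, which turned the order. A neighbour closer than 500 bp was found for 43.8% of broad and 39.5% of narrower peaks, and one closer than 2000 bp for 72.1% and 65.9%. Narrower peaks of 500 bp or more, an alternative chosen after seeing the data, had a neighbour within 1 kb in 55.6% of cases. That interval (52.9% to 58.3%) overlapped the one of broad peaks (58.1% to 66.7%) at its edge. Of 54 values under alternatives, the other 20 stayed within the intervals of the reported ones, among them all densities per Mb, with another arm length or without the densest window, and those without peaks of score over 100, also chosen after seeing the data. No paired analysis was possible because single libraries have no values in the list, and leaving out a replicate was not run. With unknown depth, regions too shallow to be joined into a broad peak cannot be told from regions without one.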
